A study of Mus musculus with 48 samples.

Results

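Adenosine-to-inosine (A-to-I) editing was compared in the small intestine of male C57BL/6 mice aged 12 weeks homozygous for either wild-type or editing-dead Adar1. The control mice were Adar1+/+ Ifih1-/- (WT, 3 libraries) and the mutant mice were Adar1E861A/E861A Ifih1-/- (E861A, 3 libraries). E861A is a point mutation in the deaminase domain of ADAR1, so that the protein is made but cannot edit. Both genotypes lacked Ifih1, which encodes the double-stranded RNA (dsRNA) sensor MDA5, and the whole small intestine was used, so every cell type of the organ contributed RNA. The 6 libraries were taken by their tissue label from 48 libraries over 8 tissues. Editing was measured by mmPCR-seq, in which loci with known editing sites are amplified in multiplexed PCR and sequenced deeply, and the editing level is the percentage of reads at a site that carry G in place of A. Of 48715 positions tabulated, 5155 were covered, which required over 100 reads in each of 2 or more replicates per genotype. Of these, 413 sites (8.01%, Wilson 95% interval 7.30 to 8.78) were edited, which required that the summed reads of WT or of E861A gave a level over 1%. They named 127 genes in WT and 71 in E861A, of which 40 were shared. The sites just inside this limit lay in Dtx3l and Cds2 at 1.00%, and those just outside lay in an intergenic region at 0.987% and in Taz at 0.985%.

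ADAR enzymes deaminate adenosines in dsRNA, and inosine is read as guanosine by the ribosome and in sequencing. ADAR1 edits long dsRNA, mostly inverted repeats in 3'UTRs and introns, where many adenosines in a short stretch are edited at once. ADAR2 is best known for editing single adenosines in coding sequence, which changes an amino acid (recoding). Unedited endogenous dsRNA is sensed by MDA5, and deleting Ifih1 allows mice without ADAR1 editing to live to adulthood.

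The libraries had a coverage of 7478024 to 10727444 summed over all positions, in which a read counts once for each position it spans, 4787 to 6349 positions with more than 100 reads, and a median coverage of those positions of 921 to 1710 reads. WT replicate 1 had the lowest summed coverage and median coverage and the most positions read. The library labelled WT replicate 2 is described apart wherever a value rests on it, since its mean level over edited sites lay within the E861A range. Its genotype could not be checked here, because the mutated codon is not on the panel: Adar had 5 positions, all intronic, with 0 reads in these libraries. The tissue label could not be checked either. Of 14 genes that mark small intestinal epithelium, 2 had positions on the panel and 0 were covered, and none of 5 immune or 4 smooth muscle marker genes was covered. Of 6 genes of enteric neurons and brain, 2 were covered and 1, Kcna1, had an edited site. In bulk RNA a level that differs between libraries may come from fewer cells of an edited type or from less editing per cell, and these cannot be told apart.

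The sites on which the results turn are given here as 21-base windows of the transcribed strand, read from the mm9 (NCBIM37) genome, with every adenosine of the 413 edited sites in capitals. All 413 sites had A on the annotated strand of this genome. The first set holds 3'UTR sites that were high in 2 WT libraries and near 0 in every E861A library:
Mad2l1 3'UTR, chr6:66490065-66490085, plus strand: AatgtgtgttAttgttccatt
Mad2l1 3'UTR, chr6:66490254-66490274, plus strand: ccAggatAtAAagaagcgttt
Ankrd28 3'UTR, chr14:32513839-32513859, minus strand: ttttctttAtAAAAatcaAca
Rhoa 3'UTR, chr9:108239451-108239471, plus strand: tttgtgaattAggctgtaact
Cdh1 3'UTR, chr8:109192613-109192633, plus strand: tgatctgAgaAgtgtgcagat

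The second set holds 4 of the coding sites whose edit changes an amino acid and which were read above 20% in at least 1 WT library:
Cog3 Ile to Val, chr14:76119516-76119536, minus strand: cattaaggaAAtttccctgga
Flna Gln to Arg, chrX:71472191-71472211, minus strand: tctagtcttcAggtgaggcac
Cyfip2 Lys to Glu, chr11:46086135-46086155, minus strand: cagatacattAagaccagtgc
Gria3 Arg to Gly, chrX:39007419-39007439, plus strand: ctcagcattaAggtgggtgga

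The third set holds sites that were read with G at a high level in E861A:
Rpa1 3'UTR, chr11:75114492-75114512, minus strand: AcaAgtcattAaccccactct
Rpa1 3'UTR, chr11:75114507-75114527, minus strand: aacagaaattAtgtcAcaAgt
Iqgap1 3'UTR, chr7:87857164-87857184, minus strand: aagaaaaAggAaaaaaaaaag
uc012aji.1 noncoding RNA, chr17:6123037-6123057, plus strand: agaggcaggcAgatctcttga

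Mean editing was lower in E861A than in WT replicates 1 and 3, but not than in WT replicate 2. Over the 222 edited sites read in all 6 libraries, editing averaged 11.1%, 0.978% and 5.90% in WT replicates 1, 2 and 3. It averaged 0.506%, 1.33% and 1.03% in E861A replicates 1, 2 and 3. WT replicates 1 and 3 stood above every E861A library, and WT replicate 2 lay between E861A replicates 1 and 3. WT averaged 6.00% ± 5.07 and E861A 0.957% ± 0.419 (SD over n = 3 libraries each), a difference of -5.04 percentage points that was not larger than the spread between replicates (two-sided exact permutation test, p = 0.3, smallest possible p 0.1). On the same 222 sites the difference was -2.48 percentage points without WT replicate 1 (exact permutation p = 0.6) and -7.55 without WT replicate 2 (exact permutation p = 0.2), so that either library moved it. With the sites chosen anew it was -5.32 over 106 sites without WT replicate 1 and -6.82 over 281 sites without WT replicate 2.

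The same order was seen at sites chosen without any small intestine value. For this, 103 sites with a pooled WT level above 10% in at least 2 of the 7 other tissues, read in all 6 small intestine libraries, were averaged. Their mean level was 15.9%, 0.603% and 10.1% in WT replicates 1, 2 and 3, and 0.440%, 1.81% and 1.12% in E861A. WT replicate 2 was again within the E861A range, and E861A minus WT came to -7.74 percentage points (exact permutation p = 0.3). On the same 103 sites it was -4.21 without WT replicate 1 (exact permutation p = 0.6) and -11.9 without WT replicate 2 (exact permutation p = 0.2). Over all 2644 covered sites read in 6 libraries, most of which are not edited, editing averaged 1.13%, 0.277% and 0.587% in the WT libraries, against 0.191%, 0.289% and 0.241% in the E861A libraries (difference -0.423 percentage points, exact permutation p = 0.2). This last difference was -0.191 percentage points without WT replicate 1 and -0.617 without WT replicate 2, over the same sites.

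**Figure D1:**
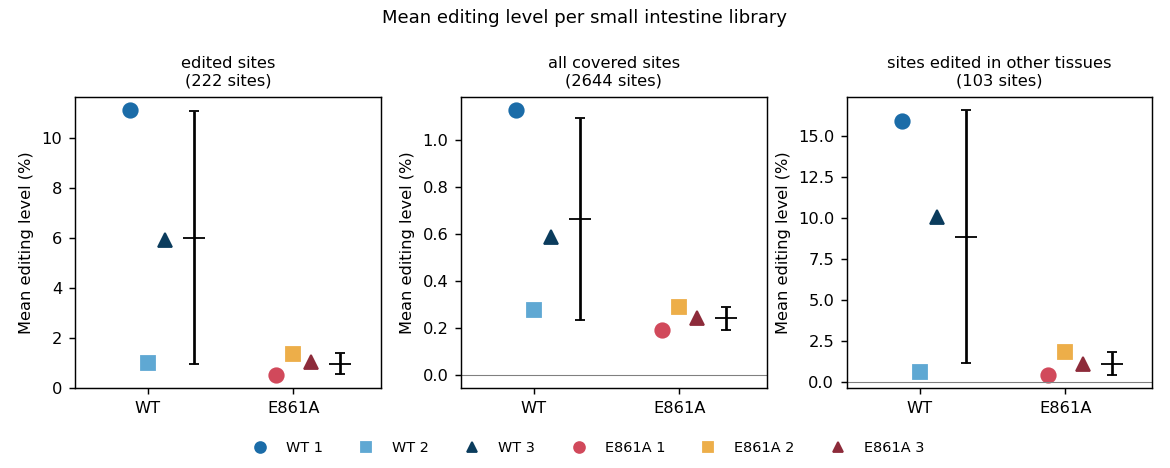
Mean editing level in percent (vertical axis, a scale of its own in each panel) of each small intestine library, for edited sites, all covered sites and sites edited in other tissues; each symbol is 1 library, and the black bar is the genotype mean ± SD (n = 3). WT replicate 2 lies with the E861A libraries in all 3 panels, at 0.978%, 0.277% and 0.603%.

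Most edited sites came from 1 library. Among the 413 sites, 294 were above 1% in WT replicate 1, 46 in WT replicate 2 and 53 in WT replicate 3, against 38, 51 and 40 in E861A replicates 1, 2 and 3. Levels above 20% were reached by 99, 6 and 24 sites in the WT libraries and by 1, 9 and 9 sites in the E861A libraries. Levels above 90% were seen at 5, 3 and 6 sites in WT and at 0 sites in any E861A library. WT replicates 1 and 3 each had more sites above 20% than any E861A library, while WT replicate 2 had fewer than E861A replicates 2 and 3. In the count of sites above 1%, WT replicate 1 stood apart from the other 5 libraries.

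By pooled level, WT had 333 edited sites and E861A had 98, with 315 over the limit in WT only, 80 in E861A only and 18 in both. The WT number rested on WT replicate 1, since leaving it out gave 82 sites for WT against 65 for E861A. The shared sites made up 5.41% of the WT set (Wilson 95% interval 3.45 to 8.38) and 18.4% of the E861A set (11.9 to 27.2). The median pooled level was 3.61% at the sites edited in WT only and 1.58% at the sites edited in E861A only. Pooled levels above 20% were found at 25 of the former and 2 of the latter.

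**Figure D2:**
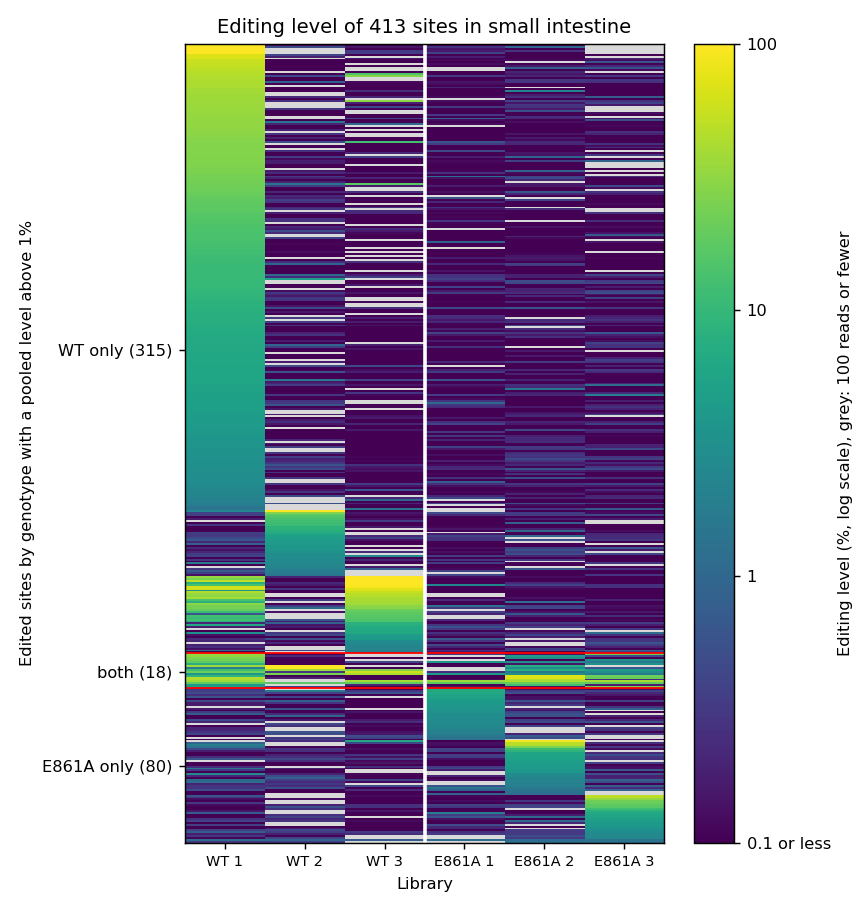
Editing level (colour, percent on a log scale, grey where a library had 100 reads or fewer) of the 413 edited sites (rows) in the 6 small intestine libraries (columns), sorted by the genotype edited above 1% and by the library with the highest level. Blocks of sites light up in 1 library at a time: 294 sites exceed 1% in WT replicate 1, 46 in WT replicate 2 and 53 in WT replicate 3.

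Replicate WT libraries seldom shared an edited site. The 333 WT-edited sites exceeded 1% in a single WT library in 287 cases (86.2%), in 2 libraries in 41 cases and in all 3 in 5 cases. WT replicate 1 was the lone library at 242 sites, WT replicate 2 at 31 and WT replicate 3 at 14, while WT replicates 1 and 3 shared 32 sites that WT replicate 2 did not. In E861A, 84 of 98 sites (85.7%) were above 1% in 1 library, 9 in 2 and 5 in all 3. The same count was made in the other tissues. Of WT-edited sites read in all 3 WT libraries, 36 of 216 (16.7%) were above 1% in 2 or more of them in small intestine, 28.4% in heart, and 56.0% to 76.1% in spleen, liver, thymus, BM (bone marrow), brain and kidney. The 5 sites above 1% in all 3 WT libraries were in the 3'UTRs of Mad2l1, Cdh1 and Iqgap1, in the Cog3 coding sequence and in an intergenic region of chromosome 17. The difference between tissues was not tested.

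**Figure D3:**
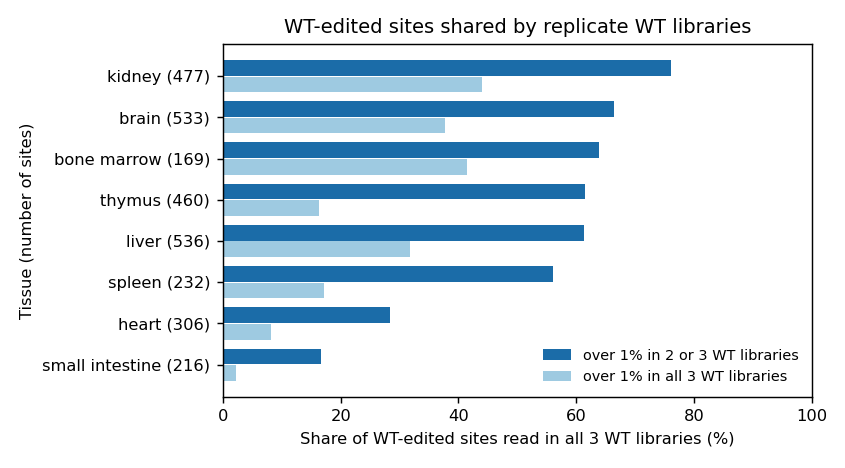
Share in percent (horizontal axis) of the WT-edited sites of each tissue, among those read in all 3 WT libraries, that were above 1% in 2 or 3 WT libraries (dark bars) or in all 3 (light bars); the number of sites is in parentheses. Small intestine has the shortest bars, at 16.7% and 2.31%.

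No single site passed the test between genotypes. Levels were compared site by site with limma on the log2 ratio of edited to unedited reads, with an offset of 0.01 added to both fractions, and p-values were adjusted over the 413 sites (Benjamini-Hochberg, threshold 0.05). With this test 0 sites (0.0%) were lower and 0 sites (0.0%) were higher in E861A, and the smallest adjusted p was 0.559. At an unadjusted p under 0.05, 2 sites (0.484%) were lower, in Gria3 and Ankrd28, and 0 were higher. A quasi-binomial model of the read counts gave 0 sites as well, with 36 at an unadjusted p under 0.05. When the spread was estimated over all 48 libraries, 41 sites were lower and 7 higher. That spread comes mostly from the other tissues, where larger shares of WT-edited sites recurred between WT libraries (28.4% to 76.1%, against 16.7%). It need not hold for small intestine.

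Without WT replicate 2, 2 of 344 sites (0.581%) passed, both in the Mad2l1 3'UTR, and 30 (8.72%) had an unadjusted p under 0.05. That library is singled out here by its low editing, which is the outcome itself, so values without it are a description and not a test of the genotype. The criterion in the methods is a one-way F test at p under 0.1, with genotype means at least 5 percentage points apart and no adjustment for the number of sites. It was met by 7 of 413 sites (1.69%), all in Mad2l1 and all lower in E861A. Of these, 5 had no value in WT replicate 2 and E861A replicate 1, so that WT replicates 1 and 3 were set against 2 E861A libraries, and 1 was read in all 6 libraries. The highest E861A library lay below the lowest WT library at 17 of 222 sites read in all 6 (7.66%), and the reverse order held at 9 (4.05%). Over all 2644 covered sites these shares were 2.8% and 4.5%. When WT replicate 2 was left aside, E861A was below WT replicates 1 and 3 at 45 of 276 sites (16.3%), of which 7 were in Mad2l1 and 7 in Ankrd28, and above both at 16 (5.8%). Over the 3202 covered sites read in these 5 libraries the shares were 5.53% and 10.5%, and the edited sites were chosen on the same WT levels.

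Mad2l1, which encodes the spindle checkpoint protein MAD2, had the most edited sites, 21 within 674 bases of its 3'UTR. Its mean level over the edited sites read was 22.4% in WT replicate 1, 0.611% in WT replicate 2 and 27.4% in WT replicate 3. In E861A it was 0.0506%, 0.113% and 0.105%. WT replicates 1 and 3 were far above the E861A libraries, and 20 of 21 and 14 of 17 sites read were above 1% in them, against 2 of 13 in WT replicate 2 and 0 in each E861A library.

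The site at chr6:66490075 was at 63.1%, 0% and 92.0% in WT replicates 1, 2 and 3 and at 0.0603%, 0.161% and 0.265% in E861A (1507 to 3341 reads per library). WT replicate 2 was below all 3 E861A libraries there. The change in E861A was -5.60 on the log2 ratio scale (limma, 95% interval -11.5 to 0.32, unadjusted p = 0.0617, adjusted p = 0.559), and -8.51 without WT replicate 2 (limma adjusted p = 0.0262). The site at chr6:66490264 was at 60.5%, 0.293% and 72.5% in WT and at 0%, 0.115% and 0% in E861A, so that the genotypes did not overlap. Its change was -5.17 (limma, 95% interval -10.9 to 0.53, unadjusted p = 0.0716, adjusted p = 0.559), and -7.59 without WT replicate 2 (limma adjusted p = 0.0262). Over the alternatives the limma adjusted p of these 2 sites lay between 0.0257 and 0.874. These sites were high in WT of some other tissues and low in others. At chr6:66490264 the WT level was 64.9% ± 17.9 (SD, n = 2) in BM and 39.8% ± 4.32 (SD, n = 3) in liver, against 1.23% ± 1.55 and 0% ± 0 (n = 3 each) in E861A. It was 13.6% ± 12.3 in WT spleen and 0.0404% ± 0.0700 in WT heart (SD, n = 3 each), and 0% in the 1 WT brain library that read it. At chr6:66490075 the WT level ran from 0.308% in heart to 78.1% in BM over the 7 other tissues.

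Ankrd28, which encodes a regulatory subunit of protein phosphatase 6, had 11 edited sites in its 3'UTR, 10 of them between chr14:32513812 and 32513851. The mean level was 22.9% in WT replicate 1, 0.196% in WT replicate 2 and 32.7% in WT replicate 3, against 0.106% to 0.248% in E861A. In WT replicate 1 all 11 sites were above 1%, between 2.68% and 50.9%. In WT replicate 3, 3 sites were read as G in 100% of reads, 2 more were above 20%, and the other 6 were at or below 0.211%. The reads carry no molecular identifiers, so these levels are shares of PCR reads, and the number of cDNA molecules behind them is not known. The site at chr14:32513849 was at 50.9%, 0.0395% and 100% in WT and at 0%, 0.0609% and 0% in E861A, a change of -6.67 (limma, SE 2.90, unadjusted p = 0.0410, adjusted p = 0.559). Its limma adjusted p lay between 0.00829 and 0.874 over the alternatives.

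Among the other genes with many edited sites, some were high in WT replicate 1 alone and some in WT replicates 1 and 3, while Rpa1 and uc012aji.1 were also high in E861A. Bri3bp, which encodes a membrane protein that binds BRI3, had 10 edited 3'UTR sites with a mean of 54.7% in WT replicate 1 and 0.0807% to 0.650% in the other 5 libraries. The 3 sites with the highest coordinates were at 97.7% to 98.4% in WT replicate 1 and at or below 0.383% in every other library that read them. Slc35e2, a member of a solute carrier family, had 16 edited sites with a mean of 16.1% in WT replicate 1 and at most 0.480% elsewhere.

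Mgat4a, a Golgi enzyme that branches N-glycans, had 7 edited sites with means of 17.5%, 2.59% and 8.97% in WT and 0.177% to 0.249% in E861A, so all WT libraries were above all E861A libraries. In WT replicate 2 that mean rested on 1 site, at 17.0%. Cdk7, the cyclin-dependent kinase of the transcription factor TFIIH, averaged 8.89%, 0.154% and 22.0% in WT and 0.196%, 0.717% and 0.395% in E861A, with WT replicate 3 resting on 1 site at 65.8% among 3 read. Trim12c, a member of the TRIM family of ubiquitin ligases, had 1 edited site, at 42.0%, 0% and 42.0% in WT and 0%, 0.141% and 0.0257% in E861A. WT replicate 2 was again at or below the E861A libraries.

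Rhoa and Cdh1, both known for epithelial shape and adhesion, were edited in their 3'UTRs. Rhoa, a small GTPase of the actin cytoskeleton, was edited at chr9:108239461 at 12.8%, 0.594% and 15.0% in WT and at 0.213%, 0.101% and 0.115% in E861A. The window of this site had 4 exact matches in the genome and none with G at the site. Cdh1, which encodes E-cadherin, the adhesion protein of epithelial junctions, was edited at chr8:109192623 at 24.6%, 1.09% and 29.6% in WT and at 0.309%, 0.438% and 0.122% in E861A. In WT of the 7 other tissues the mean of this Cdh1 site ran from 0.0293% in heart to 33.3% in thymus, beside 18.4% in small intestine. At both sites WT replicate 2 was the lowest WT library and still above all E861A libraries, and neither site passed (limma adjusted p = 0.559). A list of 10 genes, described as ADAR1-dependent 3'UTR targets by an earlier analysis of these data, held 34 edited sites in 8 covered genes. Of these sites 31 were edited in WT, 5 in E861A and 2 in both, a split that the choice of the list favours. None of the 34 had an unadjusted limma p under 0.05, beside 2 of all 413 edited sites.

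**Figure D4:**
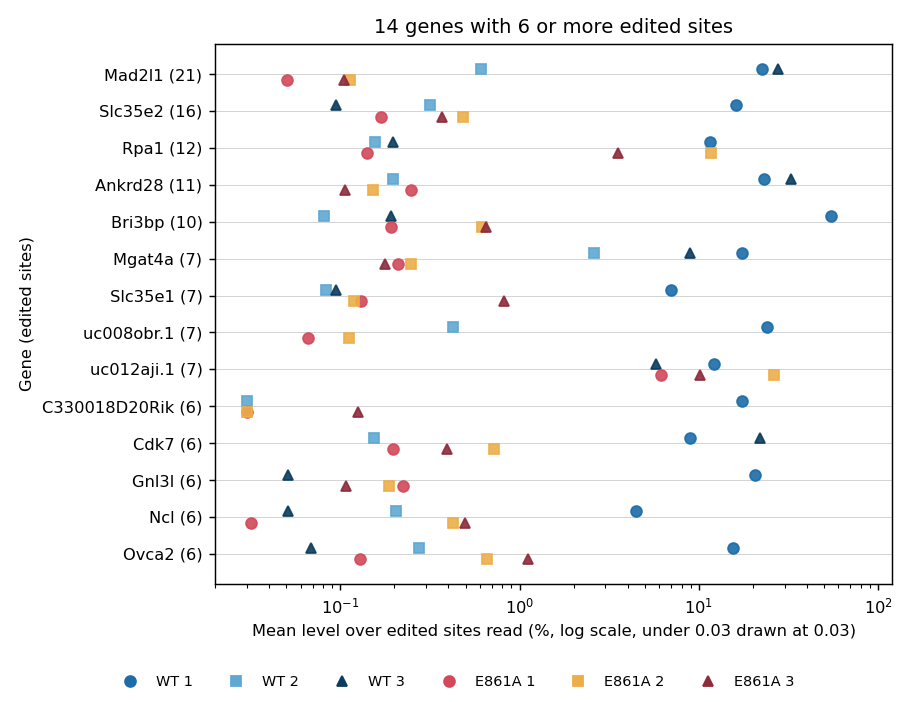
Mean editing level in percent (horizontal log axis, values under 0.03% drawn at 0.03%) over the edited sites of each of 14 genes with 6 or more edited sites; each symbol is 1 library and the number of sites is in parentheses. Mad2l1 and Ankrd28 are high in WT replicates 1 and 3 (22.4% and 27.4%, 22.9% and 32.7%), Bri3bp in WT replicate 1 alone (54.7%), and Rpa1 in WT replicate 1 and E861A replicate 2 (11.6% and 11.7%).

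Some sites were read with G at a high level in a library that carries no active ADAR1. In the 3'UTR of Rpa1, which encodes the large subunit of the single-strand DNA binding protein RPA, 12 sites were edited. The site at chr11:75114502 was at 9.11%, 0.0456% and 0.10% in WT and at 0.0283%, 71.0% and 21.5% in E861A, and the site at chr11:75114517 was at 43.4%, 0.180% and 0.0247% in WT and at 0.0281%, 67.3% and 19.3% in E861A. E861A replicates 2 and 3 were high at both sites and low at the 10 others, which were all at or below 0.854% in these 2 libraries, while WT replicate 1 was above 1% at all 12. In liver the same pair was at 24.1% ± 2.98 and 79.2% ± 18.2 in E861A and at 18.3% ± 16.7 and 97.0% ± 2.83 in WT (SD, n = 3 each). In BM it was at 0.118% and 3.22% (means, n = 2) in E861A and at 19.5% ± 25.6 and 68.3% ± 7.50 (SD, n = 3) in WT, and in heart all means were at or below 0.108%. The 21-base windows of these sites had 1 match each in the genome and none with G at the site.

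Other sites with a high level in E861A included some that were high in 1 E861A library. In Commd2 the site at chr3:57449858 was at 50.2% in E861A replicate 3 and at or below 0.583% in the other libraries that read it. In Ecm2, which encodes an extracellular matrix protein, the site at chr13:49627504 was at 32.7% in WT replicate 1, 20.7% in E861A replicate 3 and at or below 0.321% elsewhere. Acot10, an acyl-CoA thioesterase retrogene, was at 88.8% in E861A replicate 2, over 107 reads, and at 6.38% in WT replicate 3. In the other tissues that read it, its mean ran from 16.7% to 60.1% in WT and from 10.1% to 61.2% in E861A. The windows of Commd2 and Acot10 occur with G elsewhere in the genome, at 2 places and 1 place, and the part of these copies in the values was not tested.

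Of the 18 sites edited in both genotypes, 2 stood at nearly the same level in every library that read them. The Iqgap1 3'UTR site, in a gene for a scaffold protein of the cytoskeleton, was at 18.5%, 17.0% and 19.4% in WT and at 17.8%, 20.9% and 19.1% in E861A. In the 7 other tissues its mean was 16.4% to 19.7% in WT and 18.1% to 21.6% in E861A. The uc012aji.1 site at chr17:6123047 was at 37.3% and 39.9% in the 2 WT libraries that read it and at 35.9% to 41.5% in E861A, with 36.1% to 41.4% as the means of both genotypes in other tissues. The genotypes overlapped at both sites. The Iqgap1 window lies in a run rich in A and had 23 exact matches in the genome and 1 with G at the site, and the uc012aji.1 window had 230 and 56. Of the 18 windows, 8 had a second match or a match with G, and the part of these copies was not tested.

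Several sites that change an amino acid were ordered differently among the libraries from the mean of the 3'UTR sites, which was not tested. Of the nonsynonymous sites covered, 16 were edited (8.84%, Wilson 95% interval 5.51 to 13.9), 10 of them in WT and 9 in E861A, with 3 in both. Of a list of 26 genes known for recoding, 14 were covered, 9 had edited sites and 1 site of 12 had an unadjusted limma p under 0.05, beside 2 of all 413 edited sites (0.484%). E861A replicate 1 had 4 reads or fewer at the sites of Cog3, Flna and Cyfip2, so E861A rests on 2 libraries there.

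WT replicate 2, whose mean over the 3'UTR sites was low, was the highest library at the recoding sites of Flna, Cyfip2, Gria3 and Cog3, and at a Lys to Glu site of Zfp397, a zinc finger protein gene. It was also above 1% at 29 edited 3'UTR sites, and was the highest library at some of them, such as chr1:37499904 in Mgat4a (17.0%). Flna, which encodes the actin crosslinker filamin A, was at 1.86%, 97.3% and 0.0874% in WT and at 2.94% and 0.589% in E861A at its Gln to Arg site. Cyfip2, a subunit of the WAVE actin regulatory complex, was at 2.42%, 96.1% and 0% in WT and at 0.0579% and 0.113% in E861A at its Lys to Glu site. Both sites were close to fully edited in WT replicate 2 alone, over 1151 and 769 reads. The Zfp397 site was at 27.5% in WT replicate 2 and at or below 0.498% in the other 5 libraries. In brain, the Cyfip2 site was at 80.2% ± 5.82 in the WT libraries and 79.8% ± 1.14 in the E861A libraries (SD, n = 3 each). The Flna site was at 34.9% ± 20.7 and 20.7% ± 13.0 there, and at 64.3% ± 24.0 and 62.0% ± 13.6 in heart (SD, n = 3 each). The Zfp397 site averaged 0.816% or less in each genotype of the 7 other tissues.

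Gria3, which encodes an AMPA-type glutamate receptor subunit, was read at its Arg to Gly site in 2 libraries per genotype. The site was at 36.2% and 100% in WT replicates 1 and 2 and at 0% and 7.67% in E861A replicates 1 and 2. In brain it was at 58.0% ± 13.6 in WT and 67.1% ± 5.30 in E861A (SD, n = 3 each), and in liver at 19.6% ± 27.3 and 64.4% ± 25.1 (SD, n = 2 each), with the higher mean in E861A, while in kidney it was at 11.0% ± 8.80 in WT and 1.25% ± 0.484 in E861A (SD, n = 3 each). Its change was -7.97 on the log2 ratio scale (limma, SE 1.91, unadjusted p = 0.00205, adjusted p = 0.559), the smallest p of all sites, and it passed with an offset of 0.05 (limma adjusted p = 0.0144), on untransformed levels (limma adjusted p = 0.0207) and with all 48 libraries (0.00147). It also passed without WT replicate 3 or E861A replicate 3, which did not read it, so that the same 4 values were tested with another set of sites and this adds no support. It did not pass with the quasi-binomial model (adjusted p = 0.420), a minimum of 50 reads (limma adjusted p = 0.556) or an offset of 0.001 (0.652).

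Cog3, a subunit of the Golgi tethering complex COG, was edited at its Ile to Val site in every library that read it. The level was 11.9%, 35.9% and 25.7% in WT and 7.69% and 4.58% in E861A, so the genotypes did not overlap. In the 7 other tissues the means of this site ranged from 17.1% (BM) to 64.0% (liver) in WT and from 17.7% (BM) to 61.3% (liver) in E861A. The genotype difference in small intestine was larger than in BM by -2.12 on the log2 ratio scale (limma interaction, SE 0.889, unadjusted p = 0.0363, adjusted p = 0.378), than in thymus by -1.92 (adjusted p = 0.680) and than in liver by -1.90 (adjusted p = 0.718), none past the threshold. With the spread of all 48 libraries, most of them from other tissues, its change of -2.07 passed (limma adjusted p = 1.64e-04, against values up to 0.874 under other settings).

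Other recoding sites were edited in 1 library. The 3 sites of Blcap, a small membrane protein gene, were at 4.51%, 3.98% and 10.6% in WT replicate 1 and at or below 0.163% in every other library. The Ile to Val site of Kcna1, a voltage-gated potassium channel of neurons, was at 33.5% in E861A replicate 3 and at or below 0.129% elsewhere, and in brain it was at 35.2% ± 13.8 in the WT libraries and 48.3% ± 4.21 in the E861A libraries (SD, n = 3 each). Nova1, a neuronal splicing regulator, was at 3.51% in E861A replicate 1 and at or below 0.139% elsewhere.

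**Figure D5:**
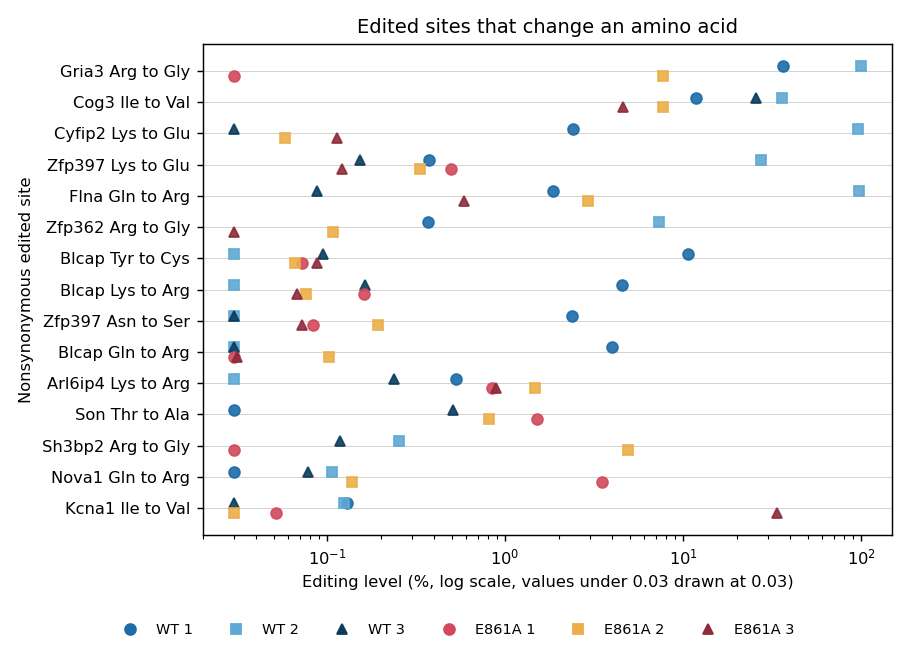
Editing level in percent (horizontal log axis, values under 0.03% drawn at 0.03%) of 15 edited nonsynonymous sites; each symbol is 1 library and a missing symbol had 100 reads or fewer. WT replicate 2 is highest at the Gria3, Cog3, Cyfip2 and Flna sites, at 100%, 35.9%, 96.1% and 97.3%.

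By annotated class, 3'UTRs held 324 of the 413 edited sites, or 9.62% of the 3367 covered 3'UTR sites (Wilson 95% interval 8.67 to 10.7). Introns held 18 of 637 (2.83%, 1.79 to 4.42), intergenic regions 36 of 563 (6.39%, 4.65 to 8.73) and noncoding RNAs 12 of 219 (5.48%, 3.16 to 9.33). The 3'UTR sites edited numbered 273 in WT and 63 in E861A, and the mean over those read in all 6 libraries was 12.2%, 0.688% and 5.97% in WT and 0.476%, 1.48% and 0.850% in E861A. The 7 nonsynonymous sites read in all 6 libraries averaged 3.22%, 3.94% and 0.0951% in WT, against 0.249%, 0.319% and 4.97% in E861A. WT replicate 1 was the highest library in 3'UTRs and E861A replicate 3 in this small nonsynonymous set, where Kcna1 sets the value. The Zfp397 site sets that of WT replicate 2. Of 20 genes of editing enzymes and dsRNA sensing, 1 was covered, Adarb1, the gene of ADAR2. It had 3 edited intronic sites, of which 2 were high in WT replicate 1 only (27.9% and 23.4%) and 1 in E861A replicate 3 only (17.5%).

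The base before the edited A differed between the sites edited in WT and those edited in E861A only. ADAR enzymes are known to disfavour G just before the edited A. G preceded the A at 33 of 333 sites edited in WT (9.91%, Wilson 95% interval 7.14 to 13.6), at 17 of 80 sites edited in E861A only (21.3%, 13.7 to 31.4) and at 1119 of 4742 covered sites that were not edited (23.6%, 22.4 to 24.8). T preceded it at 40.8% (35.7 to 46.2), 15.0% (8.79 to 24.4) and 17.8% (16.7 to 18.9) of the same sets. The interval of the sites edited in E861A only held the value of unedited sites in both cases, and that of the sites edited in WT did not. The base after the A was G at 39.9%, 46.3% and 34.5%, with intervals that overlapped.

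The same count was made within the WT libraries. Of 242 sites above 1% in WT replicate 1 alone among the WT libraries, G preceded the A at 7.85% (5.08 to 11.9) and T at 45.9% (39.7 to 52.2). Of 31 sites above 1% in WT replicate 2 alone, G preceded it at 25.8% (13.7 to 43.2) and T at 16.1% (7.09 to 32.6). Of 14 sites above 1% in WT replicate 3 alone, G preceded it at 14.3% (4.01 to 39.9) and T at 14.3% (4.01 to 39.9), and the intervals of this small set reached those of the other sets. Of 46 sites above 1% in 2 or 3 WT libraries, G preceded it at 8.70% (3.43 to 20.3) and T at 39.1% (26.4 to 53.5). Sites are not independent, since neighbours share an amplicon, and the intervals cover counting only.

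Sites edited in WT small intestine were compared with WT of the other tissues, as were sites edited in E861A only, which by their choice were low in WT small intestine. Of the 333 sites edited in WT small intestine, 269 (80.8%, Wilson 95% interval 76.2 to 84.7) were also edited in WT of at least 1 other tissue, and of the 80 sites edited in E861A only, 23 were (28.8%, 20.0 to 39.5). All 18 sites edited in both were, and 18.9% (17.8 to 20.0) of the covered sites that were not edited in small intestine were. In at least 2 other tissues these shares were 73.6% (68.6 to 78.0) of the sites edited in WT, 20.0% (12.7 to 30.0) of those edited in E861A only and 7.76% (7.03 to 8.56) of those not edited. By tissue, the share of the 333 sites that were read and edited in WT ran from 29.1% in spleen to 71.8% in liver, and that of the E861A-only sites from 7.59% in spleen to 23.5% in brain. Of all covered sites the share was 4.05% in spleen, 12.3% in liver and 17.1% in brain.

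The genotype difference in small intestine was set against that in BM, liver and thymus by an interaction contrast in limma, adjusted over the sites covered in both tissues and edited in either. Against BM, 8 of 645 sites (1.24%) passed, all with a smaller difference in small intestine. Against liver 0 of 726 (0.0%) and against thymus 0 of 645 (0.0%) passed, with 38 (5.23%) and 19 (2.95%) at an unadjusted p under 0.05, beside 75 (11.6%) against BM. The 8 sites were at 0.544% or less in WT small intestine and at 11.0% to 29.9% in WT BM. They entered the test by their level in BM alone, so a smaller difference in small intestine was set by the choice of sites. They included a 3'UTR site of Tcp11l1, at 0% ± 0 in WT small intestine and 20.3% ± 2.00 in WT BM, and one of Coq3, a methyltransferase of coenzyme Q synthesis, at 0.0853% ± 0.148 and 29.9% ± 22.0. On untransformed levels 0 sites passed, and without WT replicate 3 or any 1 of the E861A replicates 0 passed, while without WT replicate 1 83 sites did.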

How the data were processed

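Whole small intestine RNA from 3 animals per genotype was reverse transcribed, amplified at known editing loci and sequenced. For each library the authors deposited coverage and edited read counts at each position, and the editing level as a fraction of edited reads, with no normalization. The submitters' processing notes name STAR, SAMtools and build mm9, with versions not given in the sources used here. The level was recomputed from the 2 deposited counts, and values from 100 reads or fewer were set as missing. PCR reads carry no molecular identifiers, so Wilson intervals cover counting error only, and the spread between replicates limits precision. Sites were compared with limma 3.58.1 (lmFit and eBayes, prior trend on) in R 4.3.3, taking the log2 ratio of edited to unedited fractions, each with 0.01 added, over the 6 libraries, and library means with exact permutation tests in Python 3.11.15 (pandas 2.3.3, scipy 1.17.1, statsmodels 0.14.6). Windows were read from mm9 with samtools 1.23.1 and 21-base matches searched on both strands. The tests were run on simulated data without an outlying library, so this check does not cover the spread between replicates seen here.

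The sites and gene lists were chosen with earlier results of these data known. Sites were named by a rule: those past the threshold with or without WT replicate 2, unadjusted p under 0.05, the largest differences without overlap, the highest in WT replicate 2 and in E861A, nonsynonymous and listed genes, and genes with most sites. Alternatives covered read minimums of 50 and 500, other limits, offsets and tests, all 48 libraries, a replicate block and leaving out each library. The 2 matrix files were not used, and some genes are not reported here.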

Additional observations from a re-analysis of the deposited data

Results flagged for a closer look

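The genotype difference (E861A minus WT, log2 ratio scale) differed between small intestine and BM by the interaction test at 8 sites, with limma adjusted p of 0.0314 to 0.0365. The interaction was 4.72 in Tcp11l1, 4.44 in Cybasc3, 4.59 in Dcaf10, 3.61 in Zbtb4 and 5.16 in Coq3, all in 3'UTRs, 3.45 in an intron of Zkscan3 and 4.43 in an intergenic region of chromosome 15. All 8 were positive, with editing near 0 in both genotypes of small intestine and a WT level of 11.0% to 29.9% in BM, so the difference in BM was the larger. These sites were tested for their level in BM alone, so this direction was set by the choice of sites.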

How the results depend on the processing

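The difference of the mean levels kept its direction in every alternative, between -2.48 and -13.4 percentage points over edited sites (-2.48 on the same sites without WT replicate 1, an alternative chosen after seeing the data) and between -0.190 (without WT replicate 1) and -0.617 over all covered sites, and the share of WT-edited sites also edited in E861A stayed between 4.10% and 7.32%. Without WT replicate 1 only 82 sites were edited in WT. The count of sites lower in E861A, 0 of 413, was 1 where all 3 replicates had to be covered (Ankrd28), 1 with an offset of 0.05, 1 on untransformed levels, 41 with all 48 libraries and 7 by the methods' F test criterion. It was 0 to 2 when 1 library was left out: 2 without WT replicate 2, and 1, in Gria3, without WT replicate 3 or E861A replicate 3. The count higher in E861A was 0, and 7 with all 48 libraries. The cause was not tested. The interaction with BM, 8 sites, was 0 on untransformed levels and 0 to 83 when 1 library was left out, with 0 without WT replicate 3 or any E861A replicate and 83 without WT replicate 1. The interaction with liver, 0 sites, was 0 to 18, with 18 without WT replicate 1. With a library left out and the sites chosen anew, an alternative chosen after seeing the data, all E861A lay below all WT at 20 to 71 sites (17 with all libraries, 47 and 71 on leaving out WT replicates 2 and 3, 28 and 27 on leaving out E861A replicates 1 and 2) and above at 10 to 16 (9 with all libraries). These were 10.3% to 25.6% and 3.61% to 13.2% of the edited sites read, beside 5.00% to 14.6% and 5.50% to 11.0% of all sites read in those 5 libraries, and fewer libraries are separated more easily. Among 44 named sites, 522 of 549 recomputed values kept direction and side of the threshold, 19 passed it, 8 changed sign without passing and 0 reversed a call.

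After the genotype mean of each site was subtracted, same-numbered libraries correlated at -0.093, -0.009 and -0.028 over 222 sites. Other pairs correlated at -0.056 to 0.082, so same-numbered libraries were not more alike, and the numbers were not taken as pairs. With the replicate number as a block, 1 site, in Gria3, was lower and the interaction with BM was 0 sites. The Gria3 site was read in 2 libraries per genotype, so the block left little to estimate its spread from, and this call adds no support. No other count of calls changed side with the block.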
